A study of Mus musculus with 30 samples.

Results

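Amino acid transporter genes were followed through the nuclear RNA-seq of mouse embryonic stem (ES) cells in which the chromatin remodeller SRCAP can be degraded. The group holds 10 of 55401 genes in each count table, namely Slc1a4, Slc1a5, Slc3a2, Slc7a1, Slc7a3, Slc7a5, Slc7a11, Slc38a2, Slc6a9 and Slc43a1. They were chosen by symbol after Slc1a4 had been seen to fall with IAA (indole-3-acetic acid, an auxin) in CGR8 cells, so the CGR8 comparison selected them and is given below as a description without a test. All 10 members passed the filter on low counts in the exonic reads of all 4 tables. In the intronic reads 8 of them did, because the intron columns of Slc7a5 and Slc6a9 held 0 counts in all 30 libraries.

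The data are 30 libraries in 15 conditions of 2 biological replicates each, in 4 count tables that were analysed separately. CGR8 is the parental ES cell line, which carries neither the degron nor Tir1, and it was left untreated or given 500 µM IAA for 4 h. SYAT is a homozygous CGR8 clone in which SRCAP is fused to YPet and an auxin-inducible degron (AID) at both alleles and which expresses OsTir1 from a lentivirus with the EF1a promoter. In SYAT, IAA leads to degradation of SRCAP, and control cells were kept in the Tir1 inhibitor auxinole, whose concentration the labels and the methods give differently. SYAT cells were sampled as controls and after 2, 4, 6 and 8 h of 500 µM IAA. In a further table SYAT cells were sorted in early G1 (EG1) or late G1 (LG1), with or without 1 h of IAA. Per the methods, SYAT cells for such sorting also stably expressed mCherry with a mitotic degron and were stained with Hoechst for DNA content. The wtSRCAP and cdSRCAP cells are SYAT cells, 1 clone each, that also express wild-type or catalytically dead SRCAP-mCherry from a doxycycline-inducible vector. Both were given 1 µg/mL doxycycline for 24 h, kept in auxinole as controls or given 500 µM IAA over 4 h, and sorted for similar mCherry levels. All cells were moved to serum and LIF medium, which holds nonessential amino acids and glutamine, before the experiments. IAA acts on the SRCAP protein, so Srcap RNA does not check the labels.

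Amino acids cross the plasma membrane through solute carriers that differ in the residues they take and in the ions they move with. Slc3a2 encodes the heavy chain 4F2hc, which carries light chains to the cell surface: LAT1 (Slc7a5) exchanges leucine and other large neutral amino acids for glutamine, and xCT (Slc7a11) exchanges glutamate for cystine, the precursor of glutathione. ASCT1 (Slc1a4) and ASCT2 (Slc1a5) exchange alanine, serine, cysteine and, for ASCT2, glutamine. CAT-1 (Slc7a1) and CAT-3 (Slc7a3) take up arginine and lysine, SNAT2 (Slc38a2) takes up small neutral amino acids with sodium, GlyT1 (Slc6a9) takes up glycine and LAT3 (Slc43a1) lets branched-chain amino acids through by facilitated diffusion. Several of these genes are known targets of ATF4, the transcription factor made when amino acids run short, which binds a C/EBP-ATF response element.

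The promoters of 3 members are shown. Slc1a4 led to the choice of the genes, and Slc7a11 held letter matches to the response element. Slc7a1, which moved beside Slc1a4, held no match in the stretch searched. They were read from RefSeq promoters of GRCm38.p6, which run from 250 bases before to 50 bases after a transcript start and were found for 7 of the 10 members. Slc1a5, Slc7a3 and Slc7a5 are named only. Each window is 80 bases long, on the minus strand of the gene, at chr11:20332710-20332789 for Slc1a4, chr3:50443630-50443709 for Slc7a11 and chr5:148399901-148399980 for Slc7a1, and capitals mark matches to the element.
Slc1a4: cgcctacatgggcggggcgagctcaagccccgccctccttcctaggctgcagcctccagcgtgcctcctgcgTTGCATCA
Slc7a11: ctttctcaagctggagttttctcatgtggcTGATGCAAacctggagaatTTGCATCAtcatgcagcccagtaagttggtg
Slc7a1: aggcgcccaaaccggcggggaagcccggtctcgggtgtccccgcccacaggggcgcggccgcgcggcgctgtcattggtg
The letters searched were TGATGNAA on both strands. The match in Slc1a4 began 4 bases before the start and ran across it, and those in Slc7a11 began 66 and 47 bases before the start. Among the 10 promoters of the 7 members, those of these 2 genes held a match, as 3.97% of all 32851 promoters did. Sequence outside these promoters was not searched. The E-box CACGTG was found in Slc43a1 alone, 64 bases before the start, and in 7.15% of all promoters. No member promoter held both motifs. A match describes letters in this window and no binding was measured.

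Exon columns summed to 45617992 to 60214521 counts per library in CGR8 cells, 17540823 to 22873893 in the time course, 19740778 to 26672402 in sorted cells and 12236493 to 26369773 in the lines with transgenes. The 10 ES cell markers (Pou5f1, Sox2, Nanog and others) were detected in every condition, at a summed level of 1558 to 4594 CPM (counts scaled to the library size), against 5.35 to 25.6 for 7 primitive endoderm markers, 7.67 to 28.6 for 6 trophectoderm markers, 6.22 to 52.2 for 7 fibroblast markers and 49.6 to 192 for 5 neural markers. One SYAT library, replicate 2 at 6 h of IAA, stood apart, with 0.529% of its exon counts on mitochondrial genes against 1.80% to 2.44% in the other 9, and the first IAA replicate of wtSRCAP did so with 0.215%, against 0.606% to 0.808% in the other 7. In CGR8 cells the share was 0.575% and 1.06% in controls and reached 2.01% with IAA, where both libraries lay above both controls, and its part in the CGR8 values was not tested. The named results that rest on the SYAT and wtSRCAP libraries that stood apart are also given without them.

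The members fell into a high and a low set by their level per length, here RPKM, the CPM per kb of exon, scaled by the TMM library sizes. In CGR8 controls, Slc7a5 came first with 167 ± 16.8 RPKM (SD, n = 2), followed by Slc7a3 with 120 ± 0.611, Slc3a2 with 119 ± 3.46 and Slc38a2 with 113 ± 8.87. The ranges of the latter 3 overlapped from one to the next, while Slc7a5 lay above them. Slc1a5 followed with 13.8 ± 0.274, then Slc7a1 with 10.53 ± 1.18 and Slc1a4 with 9.79 ± 1.67, whose ranges overlapped. The lowest were Slc43a1 with 2.60 ± 0.301, Slc7a11 with 1.22 ± 0.193 and Slc6a9 with 0.788 ± 0.0730, and none of these ranges overlapped with a neighbour.

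The same 4 genes led the other control groups. The order within them differed: in SYAT controls Slc38a2 was first with 141 ± 8.56 RPKM, above Slc7a5 with 128 ± 3.14, and Slc7a3 held rank 4 with 67.3 ± 8.00. In EG1 and LG1 controls Slc1a4 held rank 5, with 26.0 ± 2.61 and 27.3 ± 0.362 RPKM, above Slc7a1 and Slc1a5. In SYAT controls it held rank 7, with 5.77 ± 2.71. Slc6a9 and Slc7a11 took the last 2 places in every control group, although their ranges overlapped in SYAT cells and Slc6a9 overlapped with Slc43a1 in wtSRCAP cells. The tables were normalized separately, so levels across them are side by side and were not compared by a test.

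**Figure D1:**
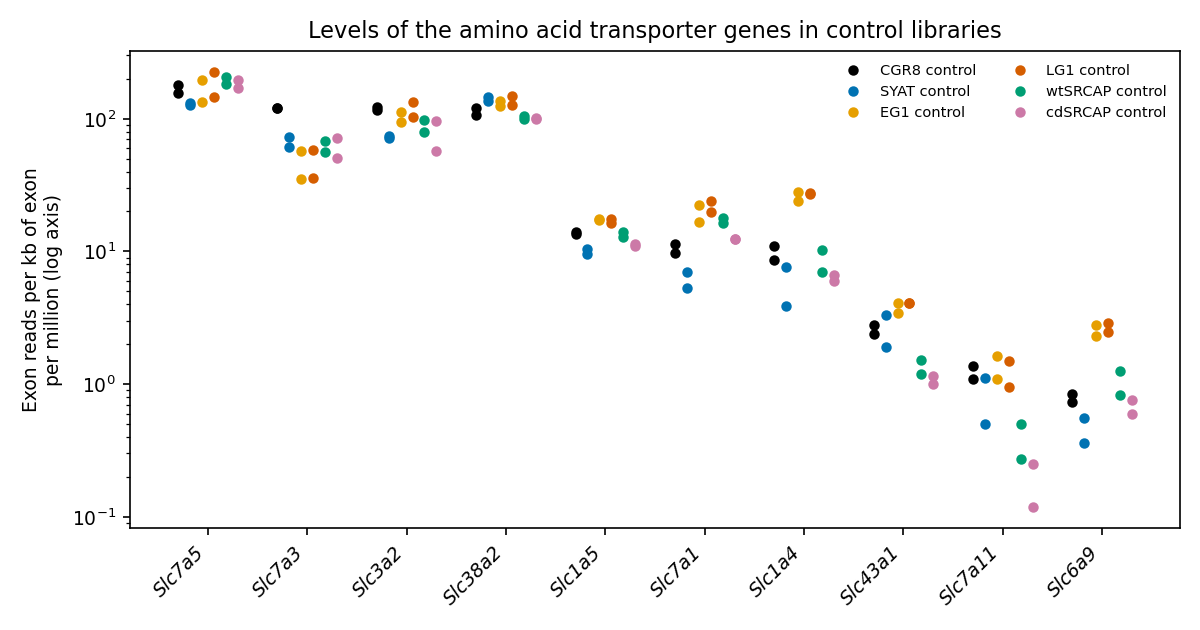
Exonic RPKM (log axis) of the 10 amino acid transporter genes in the 12 control libraries, 1 point per library, coloured by condition. Slc7a5, Slc7a3, Slc3a2 and Slc38a2 form the high set, and Slc6a9 or Slc7a11 is lowest in each condition.

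The comparison that selected the members asks what IAA does in cells without the degron. In CGR8 cells, exonic Slc1a4 was 33.8 and 43.1 CPM in the controls and 10.8 and 10.95 CPM after IAA, a log2 fold change of -1.82. Slc6a9, the glycine transporter, was 3.79 and 4.32 CPM in the controls and 2.07 and 1.92 CPM after IAA, a log2 fold change of -1.02. Slc7a1, the cationic amino acid transporter, went from 112 and 131 CPM to 71.9 and 74.99 CPM, a log2 fold change of -0.72. Slc1a5 had 58.2 and 56.6 CPM in the controls and 45.5 and 41.1 CPM after IAA, a log2 fold change of -0.41. For these 4 genes both IAA libraries lay below both controls.

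The other 6 members differed less between CGR8 controls and IAA, with log2 fold changes of -0.29 for Slc7a11, -0.10 for Slc3a2 and Slc7a5, -0.03 for Slc7a3, -0.01 for Slc38a2 and 0.09 for Slc43a1. In all, 6 of the 10 members had both IAA libraries below both controls, as 20.6% of all genes did, and their median log2 fold change was -0.19 against -0.000302 over all 20250 genes. In intronic reads 5 of 8 members lay below (17.5% of all genes), with log2 fold changes of -1.41 for Slc1a4, -1.002 for Slc7a1, -0.62 for Slc1a5, -0.42 for Slc38a2 and -0.40 for Slc7a3. These values chose the genes or come from the same libraries, and nothing is read from them. In bulk samples of this kind, fewer cells with a transcript and less RNA per cell cannot be told apart.

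**Figure D2:**
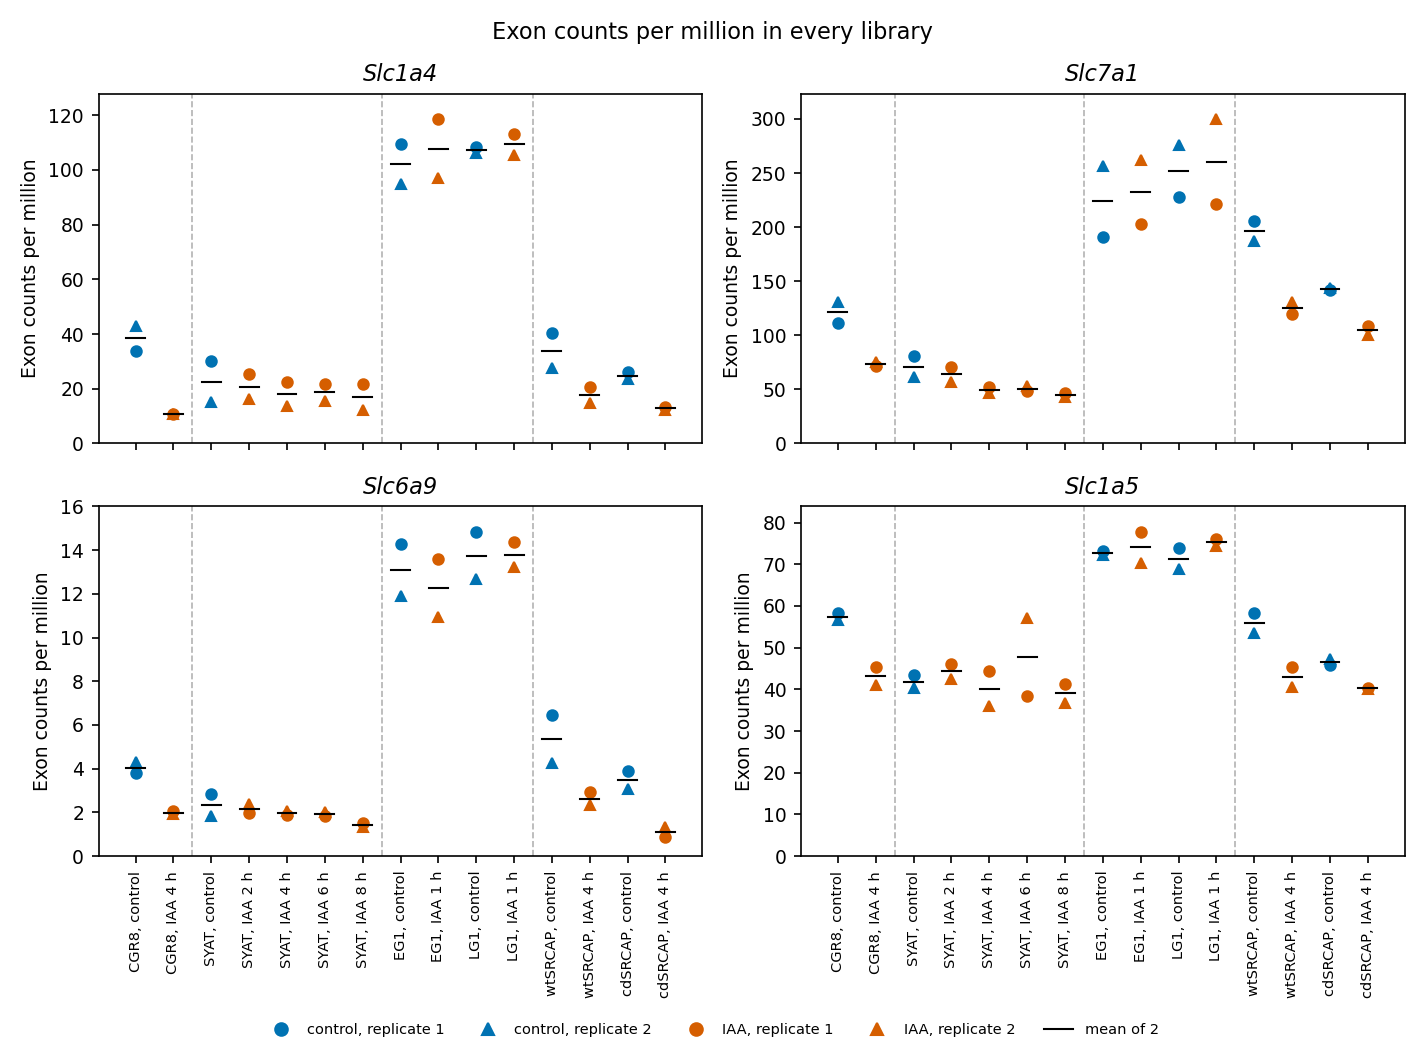
Exonic CPM of Slc1a4, Slc7a1, Slc6a9 and Slc1a5 in all 30 libraries, controls in blue and IAA in orange, circles for replicate 1, triangles for replicate 2 and a bar for the mean of 2. Dashed lines separate the 4 count tables, which were normalized separately. For Slc1a4, IAA libraries lie below their controls in CGR8, wtSRCAP and cdSRCAP cells and overlap with them in the SYAT time course and in sorted cells.

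The time course asks how the genes change over 2 to 8 h of IAA, with which SRCAP is lost in SYAT cells. Controls were kept in auxinole, so loss of SRCAP, IAA itself and the difference in auxinole cannot be told apart. The same holds for IAA against control in sorted cells and in the wtSRCAP and cdSRCAP lines. The 4 time points share the same 2 control libraries. No member passed the call of an absolute log2 fold change over 0.5 with an adjusted p under 0.05 at any time, by edgeR or by DESeq2. By edgeR 0% of all 19205 genes passed it at 2 h and 0% at 4 h, 0.0677% at 6 h and 0.00521% at 8 h. At an unadjusted p under 0.05, no member was lower at 2 h and 1 member, Slc7a1, was lower at 4, 6 and 8 h, where 6%, 8.21% and 8.44% of all genes were.

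Exonic Slc7a1 was 80.9 and 61.2 CPM in SYAT controls, 70.9 and 56.95 at 2 h, 52.1 and 46.95 at 4 h, 48.1 and 53.4 at 6 h, and 47.0 and 43.3 at 8 h. From 4 h on, both IAA libraries lay below both controls. The log2 fold change was -0.15 ± 0.17 (SE) at 2 h, -0.52 ± 0.17 at 4 h, -0.48 ± 0.17 at 6 h and -0.65 ± 0.17 at 8 h, with a 95% interval of -1.04 to -0.27 at 8 h. Its adjusted p by edgeR with the Benjamini-Hochberg method was 0.365 at 4 h, 0.216 at 6 h and 0.140 at 8 h. The first control library was the higher one, and without it the log2 fold changes were -0.31, -0.27 and -0.44 at 4, 6 and 8 h. Without the second IAA library at 6 h, the one that stood apart, the value at 6 h was -0.56, and -0.67 with the replicate as a block.

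Slc1a4 was 30.2 and 15.1 CPM in SYAT controls, so that its spread between replicates exceeded its differences over time. After IAA it was 25.4 and 16.1 CPM at 2 h, 22.6 and 13.75 at 4 h, 21.9 and 15.5 at 6 h, and 21.6 and 12.3 at 8 h. The groups overlapped at every time, with log2 fold changes of -0.12 ± 0.40 (SE) at 2 h and -0.42 ± 0.40 at 8 h and a 95% interval at 8 h of -1.31 to 0.47. That interval includes 0 and also the log2 fold change of -0.94 seen with IAA in wtSRCAP cells. It comes from the fit without a replicate block, which takes as spread that replicate 1 was the higher in every group. In pairs of the same number, both IAA libraries at 4 and 8 h lay below their control. At 2 and 6 h only that of replicate 1 did.

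Slc6a9 rested on 31 to 56 exon counts per SYAT library. It was 2.83 and 1.86 CPM in controls and 1.52 and 1.31 CPM at 8 h, where the groups did not overlap (log2 fold change -0.72 ± 0.34 SE, adjusted p = 0.384 by edgeR). In the genome its body lies opposite B4galt2, Ccdc24 and Gm17114, and the strand setting of the counting is not given in the sources used here, so reads of these genes cannot be told apart from its own where exons overlap.

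The exchangers with the heavy chain 4F2hc did not pass the test in the time course. Slc3a2 was 263 and 252 CPM in controls and 297 and 297 CPM at 2 h, with a log2 fold change of 0.20 and a 95% interval of -0.10 to 0.51. Slc7a5 stayed between 441 and 523 CPM over all 10 libraries, with a log2 fold change of 0.02 and an interval of -0.25 to 0.29 at 8 h. Slc7a11 was more variable, at 6.98 to 18.1 CPM, and its interval at 8 h ran from -1.16 to 0.79.

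Of the remaining members, Slc38a2 was the most abundant by CPM, with 1192 and 1299 CPM in controls, 1390 and 1409 CPM at 2 h and 1290 and 1205 CPM at 8 h. Its log2 fold change was 0.17 at 2 h and 0.0016 at 8 h, with an interval of -0.26 to 0.26 at 8 h. Slc1a5 was 36.0 to 57.1 CPM over the time course, Slc7a3 232 to 313 CPM and Slc43a1 10.9 to 19.0 CPM. The highest values of Slc1a5 (57.1), Slc3a2 (353) and Slc7a3 (313) were all in the second library at 6 h, which stood apart in its mitochondrial share. With all libraries the log2 fold changes at 6 h were 0.19 for Slc1a5, 0.29 for Slc3a2 and 0.10 for Slc7a3, and without that library they were -0.12, 0.11 and -0.13. For Slc1a4 the value at 6 h was -0.27 with that library and -0.04 without it. Replicate 1 of Slc1a4 was the higher in every group of the time course. With the replicate as a block, its value at 6 h without that library was -0.37.

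The comparison of 8 h with 2 h does not use the controls. The log2 fold change was below 0 for all 10 members, from -0.62 for Slc6a9 to -0.06 for Slc7a5, with a median of -0.24 against 0.0232 over all genes. Both libraries at 8 h lay below both at 2 h for 7 members, and 18.3% of all genes behaved so. No member passed the call by edgeR or DESeq2, and 0% of all genes did by edgeR. Slc7a1 was the 1 member with an unadjusted p under 0.05 (3.41% of all genes in this direction), with a log2 fold change of -0.50 ± 0.17 (SE) and an adjusted p of 0.854 by edgeR.

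The sorted cells ask whether 1 h of IAA, covering mitosis for EG1 cells or G1 for LG1 cells, changed the genes. No member passed the looser call used here, an absolute log2 fold change over 0.25 with an unadjusted p under 0.05, which 1.22% of all 21020 genes passed in EG1 and 1.02% in LG1. DESeq2 called no member either, and edgeR with the replicate as a block called none, where it called 6.04% of all genes in EG1 and 4.2% in LG1. Slc1a4 was 109.5 and 94.98 CPM in EG1 controls, 118.5 and 97.0 CPM in EG1 with IAA, 108 and 106 CPM in LG1 controls, and 113 and 106 CPM in LG1 with IAA. Its log2 fold change was 0.08 in EG1, with a 95% interval of -0.27 to 0.42, and 0.03 in LG1, with an interval of -0.32 to 0.37. These intervals leave out a change of the size that Slc1a4 showed with 4 h of IAA in wtSRCAP or cdSRCAP cells, at a shorter treatment in another table.

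Over the 10 members the log2 fold changes ran from -0.09 to 0.12 in EG1 and from 0.005 to 0.15 in LG1. Slc7a1 was 191 and 257 CPM in EG1 controls and 203 and 262 CPM with IAA, and 227 and 276 CPM in LG1 controls and 221 and 300 CPM with IAA. In each of these 4 groups the second replicate was the higher, and libraries with the same replicate number deviated together in this table. Within the 4 pairs of the same number, Slc7a1 was higher with IAA in 3. Slc3a2, Slc7a3 and Slc7a5 were higher with IAA in 4 of 4 pairs, as with Slc7a5 at 493 and 723 CPM in EG1 controls and 539 and 755 CPM with IAA, and 539 and 828 CPM in LG1 controls and 568 and 874 CPM with IAA. The share of all genes with such pairs was not computed, so no rise with IAA is read from them. With the block, the member with the smallest p in both phases was Slc7a3, at 0.11 ± 0.06 (SE) in EG1 and 0.13 ± 0.06 in LG1, with an edgeR adjusted p of 0.676 and 0.753. The response to IAA did not differ between LG1 and EG1 for any member (smallest unadjusted p = 0.7085, 0% of all genes called). LG1 and EG1 themselves also gave no called member in controls or with IAA (0% of all genes in either), and the largest difference was that of Slc3a2, at 0.21 ± 0.21 (SE) in controls and 0.23 ± 0.21 with IAA.

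The wtSRCAP and cdSRCAP cells ask whether wild-type or catalytically dead SRCAP changes the response to 4 h of IAA. Exonic Slc1a4 was 40.3 and 27.6 CPM in wtSRCAP controls and 20.8 and 14.8 CPM with IAA. In cdSRCAP cells it was 26.1 and 23.5 CPM in controls and 13.3 and 12.2 CPM with IAA. In both lines the IAA libraries lay below the controls, at 0.523 and 0.516 of the mean control level. Some marker sums moved in the same libraries: the 7 fibroblast markers were 6.22 to 7.40 CPM in wtSRCAP controls and 13.3 to 13.6 CPM with IAA, the 6 trophectoderm markers 9.19 to 9.91 CPM in cdSRCAP controls and 16.01 to 16.8 CPM with IAA, and the 10 ES cell markers 2798 to 3181 CPM in wtSRCAP controls and 3609 to 3693 CPM with IAA. In the other line each of these sums overlapped between controls and IAA. The primitive endoderm and neural sums overlapped in both lines. Marker sums also moved in other tables. In CGR8 cells the ES cell sum was 3798 to 4210 CPM in controls and 4253 to 4458 CPM with IAA. The neural sum there was 174 to 192 and 150 to 169 CPM, and the other sums overlapped. Among sums that moved at some times in SYAT cells, the trophectoderm sum was 14.7 to 19.4 CPM in controls and 20.4 to 23.4 CPM at 2 h, and overlapped at 8 h. The part of the markers in the results was not tested.

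The log2 fold change of Slc1a4 was -0.94 ± 0.27 (SE) in wtSRCAP cells, with a 95% interval of -1.55 to -0.33, and -0.95 ± 0.27 in cdSRCAP cells, with an interval of -1.57 to -0.34. It did not pass the adjusted threshold without a replicate term, with an edgeR adjusted p of 0.641 and 0.729. Libraries with the same replicate number deviated together in this table, and with the replicate as a block the log2 fold changes were -0.93 and -0.96 with an edgeR adjusted p of 0.00891 in wtSRCAP and 0.0122 in cdSRCAP cells. The responses of the lines differed by -0.02 on the log2 scale, with an interval of -0.87 to 0.84. Without the first wtSRCAP IAA library, which stood apart, the wtSRCAP value was -1.18, and -0.999 with the block (edgeR adjusted p = 0.00131), and the difference between the responses was 0.19.

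Slc7a1 had 205 and 187 CPM in wtSRCAP controls and 120 and 130 CPM with IAA, and 142 and 143 CPM in cdSRCAP controls and 109 and 100 CPM with IAA. The IAA libraries again lay below the controls in both lines. The log2 fold change was -0.65 ± 0.19 (SE) in wtSRCAP and -0.45 ± 0.19 in cdSRCAP cells, with an edgeR adjusted p of 0.641 and 0.870. With the replicate as a block, the wtSRCAP value was -0.65 (adjusted p = 0.0112 by edgeR) and passed the call, and the cdSRCAP value did not (adjusted p = 0.0974), but the difference between the responses, 0.20 with an interval of -0.40 to 0.80, was not past the test. Without the first wtSRCAP IAA library, the wtSRCAP value was -0.57, and -0.51 with the block (edgeR adjusted p = 0.0415), and the difference between the responses was 0.09.

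Slc6a9 was 6.48 and 4.27 CPM in wtSRCAP controls and 2.93 and 2.35 CPM with IAA, and 3.92 and 3.06 CPM in cdSRCAP controls and 0.889 and 1.35 CPM with IAA. These values rest on 17 to 100 exon counts per library. The log2 fold change was -1.03 ± 0.41 (SE) in wtSRCAP and -1.62 ± 0.43 in cdSRCAP cells, with an edgeR adjusted p of 0.664 and 0.721. With the block, the cdSRCAP value was -1.60 with an edgeR adjusted p of 0.0499 and passed the call narrowly, and the wtSRCAP value had an adjusted p of 0.167. Without the first wtSRCAP IAA library the wtSRCAP value was -1.17, and -1.03 with the block (edgeR adjusted p = 0.357).

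Without the replicate block no member was called in either line by edgeR or DESeq2, and 0.00523% of all 19111 genes were called in wtSRCAP and 0% in cdSRCAP cells by edgeR. With the block, Slc1a4 and Slc7a1 were called in wtSRCAP cells (3.2% of all genes in either direction) and Slc1a4 and Slc6a9 in cdSRCAP cells (1.81%). At an unadjusted p under 0.05 without the block, 3 of the 10 members were lower in each line, where 4.48% and 3.99% of all genes were. In each line 4 members, the same ones with Slc1a5, had both IAA libraries below both controls, as 19.5% and 19% of all genes did.

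Slc1a5 had 58.3 and 53.5 CPM in wtSRCAP controls and 45.3 and 40.5 CPM with IAA, and 45.9 and 47.4 CPM in cdSRCAP controls and 40.4 and 40.0 CPM with IAA. Its log2 fold change of -0.38 ± 0.20 (SE) in wtSRCAP and -0.21 ± 0.20 in cdSRCAP cells did not pass the test with or without the block, and the wtSRCAP value was -0.44 without the first IAA library. Slc7a11 was 1.26 to 6.95 CPM in this table, and its intervals ran from -2.10 to 0.91 in wtSRCAP and from -1.33 to 1.72 in cdSRCAP cells. For Slc3a2, Slc7a3, Slc7a5, Slc38a2 and Slc43a1 the log2 fold changes lay between -0.04 and 0.18 in both lines, with intervals that included 0. Without the first wtSRCAP IAA library, their wtSRCAP values ran from 0.03 for Slc7a5 to 0.36 for Slc3a2, and that of Slc7a11 was -0.11.

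**Figure D3:**
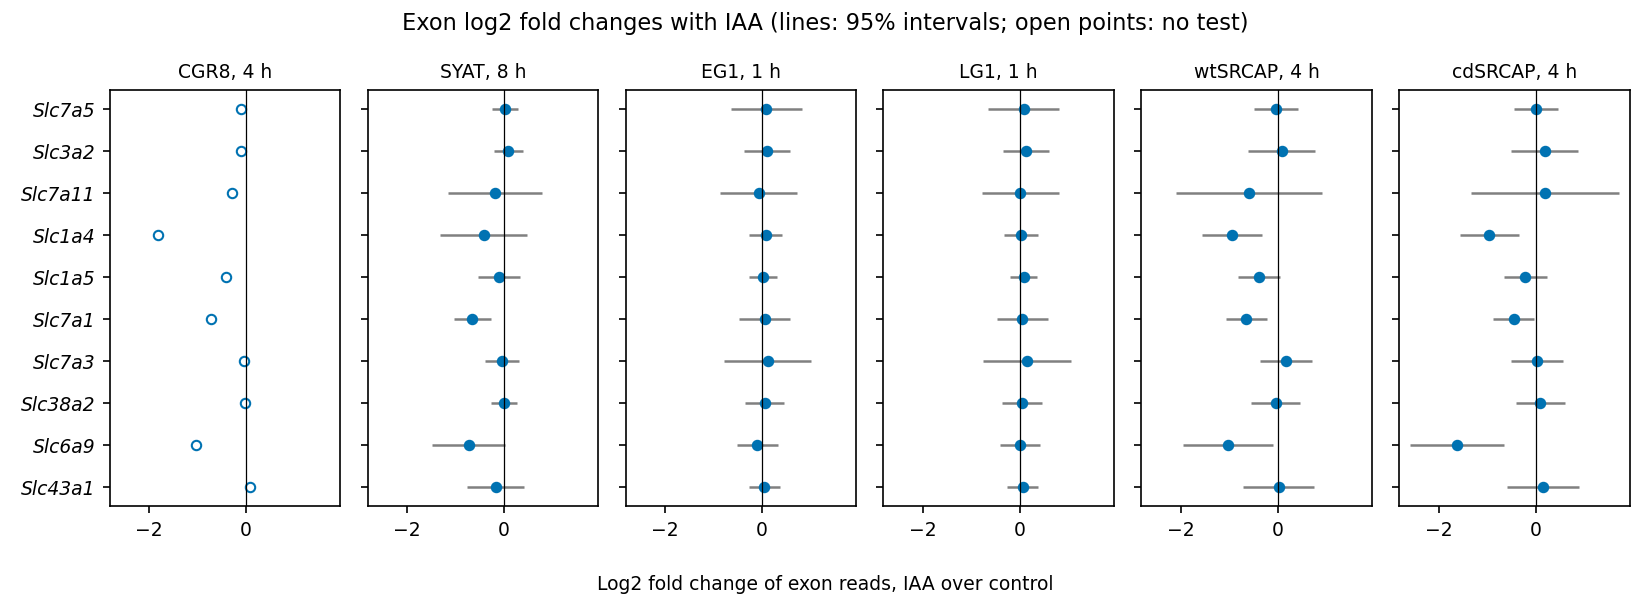
Log2 fold changes of exonic reads with IAA for the 10 amino acid transporter genes, ordered by role, in CGR8 cells (open points, no test), SYAT cells at 8 h, EG1 and LG1 cells at 1 h, and wtSRCAP and cdSRCAP cells at 4 h. Lines are 95% intervals of the edgeR fit without a replicate block, and Slc1a4, Slc7a1 and Slc6a9 are the members whose intervals leave out 0 in wtSRCAP and cdSRCAP cells.

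The cdSRCAP line was also compared with the wtSRCAP line under the same treatment, and each line is 1 clone, so clone and transgene cannot be told apart. In controls the log2 fold change of cdSRCAP over wtSRCAP was below 0 for all 10 members, with a median of -0.29 against -0.0168 over all genes, and for 6 of them both cdSRCAP libraries lay below both wtSRCAP libraries (14.1% of all genes). No member passed the call by edgeR or DESeq2 (0% of all genes by edgeR). Slc7a1 was the 1 member with an unadjusted p under 0.05 (1.32% of all genes were lower at this level), with a log2 fold change of -0.46 ± 0.19 (SE). With IAA no member was called (0.00523% of all genes), and Slc6a9 was the 1 member lower at an unadjusted p under 0.05 (2.19% of all genes), with -1.22 ± 0.44, and -1.10 without the first wtSRCAP IAA library. No member differed in its response to IAA between the lines (smallest unadjusted p = 0.342, 0% of all genes called).

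The intronic reads bear on these results only in part, because the intron columns did not hold the same quantity in all libraries. Slc38a2 had 0.00846 to 0.0134 intron counts per exon count in CGR8 cells, 0.00722 to 0.00992 in LG1 and 0.0115 to 0.0280 in wtSRCAP and cdSRCAP cells, but 1.01 to 1.02 in the time course and 1.007 to 1.01 in EG1. Slc1a4 had 0.203 to 0.333 in CGR8 cells and 0.118 to 0.205 in LG1, but 1.22 to 1.51 in the time course and 1.16 to 1.18 in EG1. Over all genes the intron total was 0.0856 to 0.132 of the exon total in CGR8 cells and 1.00 to 1.19 of it in the time course. In the time course and in EG1 the intron column of a member was at least 0.760 of its exon column for 6 of the 8 members with intron counts, the lower ones being Slc7a3 and Slc43a1. Whether the intron columns of these libraries also hold exonic reads was not tested.

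**Figure D4:**
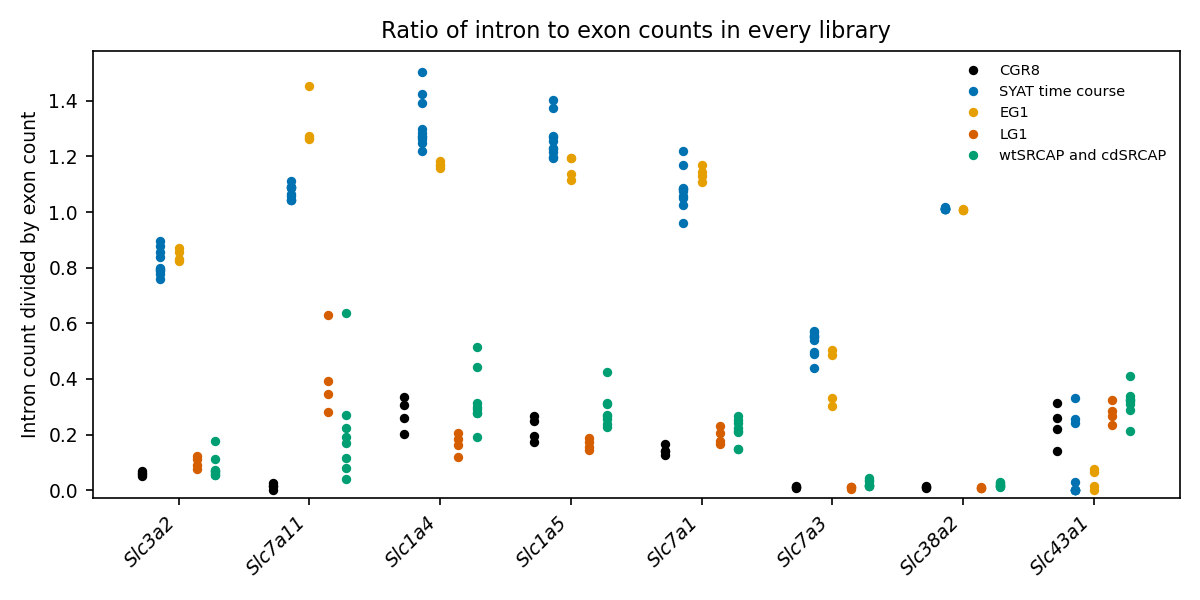
Intron count divided by exon count of the 8 amino acid transporter genes with intron counts, 1 point per library, coloured by table and, for sorted cells, by phase. In the SYAT time course and EG1 most genes lie near 1, and in CGR8, LG1, wtSRCAP and cdSRCAP libraries they lie lower, except that Slc43a1 is at or near 0 in several SYAT and EG1 libraries.

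In wtSRCAP cells intronic Slc7a1 was 198 and 225 CPM in controls and 96.1 and 117 CPM with IAA, a log2 fold change of -0.98 ± 0.19 (SE) with an edgeR adjusted p of 0.0826. Intronic Slc1a4 was 48.3 and 48.7 CPM in wtSRCAP controls and 21.8 and 26.2 CPM with IAA, a log2 fold change of -1.003 ± 0.35 with an edgeR adjusted p of 0.282. In cdSRCAP cells the values were -0.51 ± 0.19 for Slc7a1 and -0.85 ± 0.35 for Slc1a4, and the Slc1a4 groups overlapped, with 26.6 and 53.1 CPM in controls and 17.4 and 26.8 CPM with IAA. Intronic Slc1a5 was 79.2 and 79.9 CPM in wtSRCAP controls and 58.4 and 55.8 CPM with IAA, a log2 fold change of -0.48 ± 0.17. These directions are those of the exonic reads. Without the first wtSRCAP IAA library the intronic values in wtSRCAP cells were -0.86 for Slc7a1, -0.90 for Slc1a4 and -0.52 for Slc1a5.

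No member was called in the intronic reads of either line by edgeR, while 0.299% of all 12702 genes were called in wtSRCAP and 0.236% in cdSRCAP cells. At an unadjusted p under 0.05, 3 members were lower in wtSRCAP and 2 in cdSRCAP cells, as were 6.61% and 7.49% of all genes. With the replicate as a block edgeR called 1 member in wtSRCAP cells, Slc7a1, at -0.99 ± 0.14 (SE) with an adjusted p of 0.00622, where it called 2.3% of all genes. Without the first IAA library the blocked value was -0.96 (edgeR adjusted p = 0.0233). In intronic reads the deviations of same-numbered libraries correlated at 0.0759 in the weakest pair of groups, below the level in exonic reads. DESeq2 also called Slc7a1 in wtSRCAP cells. Between the lines no member was called by edgeR or DESeq2 in controls or with IAA, where 0.102% and 0.0157% of all genes were by edgeR, and 1 member, Slc7a1 in controls, was lower at an unadjusted p under 0.05, as 2.16% of all genes were. In the time course no member was called either (0% of all genes at 2 and 4 h, 0.0136% at 6 h and 0.00679% at 8 h), and Slc7a1 was the 1 member lower at an unadjusted p under 0.05 at 4, 6 and 8 h (5.87%, 7.98% and 7.85% of all genes), with a log2 fold change of -0.69 ± 0.19 (SE) at 8 h. DESeq2 called Slc7a1 at 8 h. No member was called with IAA in EG1 (2.28% of all genes) or LG1 (3.94%) by edgeR or DESeq2.

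Between LG1 and EG1 6 of the 8 members were called in intronic reads, but so were 59% of all 17441 genes in controls and 64.4% with IAA. The log2 fold changes in controls ran from -5.22 for Slc38a2 to 4.49 for Slc43a1, and Slc1a4 was at -1.07. With the replicate as a block Slc7a1 passed the call as well, at -0.91 in controls and -0.74 with IAA (edgeR adjusted p = 0.00278 and 0.00551), and so did 67.3% and 71.2% of all genes. The ratios of intron to exon counts above differ between these groups in the same way, and the part of that difference in the calls was not tested.

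Genes of the same pathways were counted from lists written with earlier results of these data known. Unless stated, they were counted in exonic reads and without a replicate block. Of 45 other amino acid transporter genes, 29 were tested in the time course, and 1 of them fell at 6 h: Ctns, the lysosomal cystine exporter, with 17.6 and 18.7 CPM in controls and 7.19 and 6.26 CPM at 6 h (log2 fold change -1.43 ± 0.19 SE, edgeR adjusted p = 0.0450). Without the second library at 6 h the value was -1.33 and the call was lost (edgeR adjusted p = 0.0940). Slc36a1, a proton-coupled amino acid transporter of lysosomes and the plasma membrane, had a log2 fold change of -0.99 ± 0.23 there with an edgeR adjusted p of 0.0892, and -0.69 without that library. The median of the 29 genes at 6 h was -0.07, against 0.00963 over all genes, and without that library the median of 30 tested genes was 0.06, against 0.0164. In wtSRCAP cells with IAA none of 30 tested transporters was called by edgeR, with 5 lower and 1 higher at an unadjusted p under 0.05 (4.48% and 2.93% of all genes), among them Slc38a9, the lysosomal arginine sensor, at -1.16 ± 0.26 (SE), and -1.24 without the first IAA library. With the replicate as a block 3 were called lower in wtSRCAP cells (Ctns, Slc38a7 and Slc38a9, at -1.10, -0.89 and -1.15), where 3.2% of all genes were called in either direction. In cdSRCAP cells 4 were called lower (the same ones and Slc36a1, at -1.21), where 1.81% of all genes were called. Without the first wtSRCAP IAA library the blocked value of Slc38a9 was -1.07.

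Of 35 genes of the ATF4 amino acid response, all 35 were tested in every table. In CGR8 cells, as a description, 30 were lower and 5 higher with IAA, with a median log2 fold change of -0.44, and Chac1, a glutathione-degrading enzyme, had a mean of 9.69 CPM in controls and 1.19 CPM with IAA. In wtSRCAP cells Chac1 fell from 14.6 and 14.4 CPM in controls to 1.07 and 0.900 CPM with IAA (log2 fold change -3.90 ± 0.38 SE, edgeR adjusted p = 0.0367), the 1 list gene called in exonic reads without a replicate block. Without the first IAA library, which stood apart, the value was -3.98 and the call was lost (edgeR adjusted p = 0.199). Atf4 itself was at -0.96 ± 0.22 without passing the adjusted threshold, and at -1.19 without that library. In exonic reads of cdSRCAP cells none was called by edgeR, with 7 lower and 0 higher at an unadjusted p under 0.05 (3.99% and 1.65% of all genes), and Chac1 was at -3.65 ± 0.38 with an edgeR adjusted p of 0.0745. The medians of the 35 genes were -0.19 in wtSRCAP and -0.18 in cdSRCAP cells, against -0.0241 and 0.0222 over all genes. With the replicate as a block edgeR called 5 genes lower in wtSRCAP cells, namely Chac1, Atf4, Mthfd2, an enzyme of mitochondrial folate metabolism, Aldh18a1, an enzyme of proline synthesis, and Gpt2, an alanine transaminase. In cdSRCAP cells it called 3 genes lower, Chac1, Atf4 and Mthfd2. Over all genes the block called 3.2% in wtSRCAP and 1.81% in cdSRCAP cells, in either direction. The blocked log2 fold changes of Atf4 were -0.97 ± 0.15 (SE) and -1.02 ± 0.15, with an edgeR adjusted p of 0.00120 and 0.00140. Without the first wtSRCAP IAA library the unblocked median of the list in wtSRCAP cells was -0.19, against -0.0161 over all genes, and the blocked value of Atf4 was -1.12. In intronic reads 29 genes of the list were tested in these lines. Without a block edgeR called Cars and Aldh18a1 lower in wtSRCAP cells, at -1.22 and -1.46 (adjusted p = 0.0303 and 0.0375). In cdSRCAP cells it called Cars, at -1.57 (adjusted p = 0.0202). Over all genes 0.299% and 0.236% were called.

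In the time course no gene of the ATF4 list was called by edgeR without a block, with 2, 6, 8 and 10 genes lower at an unadjusted p under 0.05 at 2, 4, 6 and 8 h, against 2.55%, 6%, 8.21% and 8.44% of all genes, so that the count at 2 h was near the share over all genes. The medians were -0.01, -0.16, -0.02 and -0.14, against 0.00337, 0.0182, 0.00963 and 0.0308 over all genes. Without the library that stood apart, the median at 6 h was -0.21, against 0.0164 over all genes. With the replicate as a block, 1, 2 and 3 genes of this list were called lower by edgeR at 4, 6 and 8 h. These counts are a hint only, and the calls over all genes with the block are given in the last paragraph. In EG1 and LG1 the 1 gene past the looser call was Atf3, a transcription factor induced by stress, which was higher with IAA by 0.70 ± 0.18 (SE) and 0.48 ± 0.18 on the log2 scale. That call was passed by 1.22% of all genes in EG1 and 1.02% in LG1. With the block Ddit4, an inhibitor of mTORC1 signalling, passed it as well in EG1, at 0.28 ± 0.10. The block then called 2 of the 35 genes in EG1, near the 6.04% of all genes called there. Of 33 genes of amino acid sensing by mTORC1, none was called in the time course or in wtSRCAP and cdSRCAP cells by edgeR without a block. At an unadjusted p under 0.05, 0, 6, 4 and 4 genes were lower and 1, 2, 2 and 1 higher at 2, 4, 6 and 8 h, while 1.37%, 3.09%, 7.93% and 5.13% of all genes were higher and the shares of lower genes were those given for the ATF4 list. These counts at 6 and 8 h were near the shares over all genes. The median of the list at 6 h was -0.09, against 0.00963 over all genes, and without the library that stood apart it was -0.17, against 0.0164. In each of the lines 1 was lower and 1 higher, and with the block 1 gene, the cytosolic arginine sensor Castor1, was called higher in wtSRCAP cells, at 0.81 ± 0.18 (SE, edgeR adjusted p = 0.0133). That count was near the 3.2% of all genes called there with the block. Past the looser call were Kptn, a subunit of the KICSTOR complex, at -0.40 in EG1, and Mlst8, a subunit of mTOR complexes, at -0.43 in LG1. With the block Nprl3, a subunit of GATOR1, passed it as well in EG1, at -0.27. The block then called 2 of the 33 genes in EG1, again near the 6.04% over all genes. In intronic reads of LG1, 3 of 31 tested genes of this list were lower past the looser call without a block. They were Kptn, Sec13 and Lamtor5, at -0.76, -0.66 and -1.24, where 3.94% of all genes passed it.

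The genes most like Slc1a4 were named by the Pearson correlation of exonic log2 CPM, centred within each table, over the 30 libraries and 17481 genes. The measure includes the CGR8 libraries that selected the members and libraries that share controls, so it is a description. Vldlr, a lipoprotein receptor, was first with r = 0.891, followed by Tcp11l1 (0.843), Atp6v0a1, a subunit of the vacuolar proton pump (0.833), Phlpp2 (0.827), Adm2 (0.816), Asb13 (0.809), Atf4 (0.798), D5Ertd579e (0.796), Slc6a9 (0.788) and C530008M17Rik (0.785). The likeness was not the same in every table, since within the sorted libraries Atf4 had r = -0.778 and Vldlr r = 0.744. Among the members, Slc6a9 ranked 9 of 17480 genes, Slc7a1 15 (r = 0.758) and Slc1a5 47 (r = 0.707). Slc7a11 (r = 0.303), Slc43a1 (0.265) and Slc7a5 (0.101) were less like it, and Slc3a2 (-0.096), Slc38a2 (-0.0941) and Slc7a3 (-0.202) had negative values.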

How the data were processed

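Nuclear RNA of mouse ES cells was sequenced with a directional kit. Per the study's methods, the authors used STAR for alignment against mm10 and featureCounts for counts over exons of GENCODE vM25 and over introns, taken as gene bodies without exons. The submitters' notes also name SAMtools 1.10. The strand setting of the counting is not given in the sources used here. The 4 deposited tables hold raw counts per gene, one exon and one intron column per library. Tables of the authors' own comparisons, which hold DESeq2 fold changes and p-values, were not used.

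Each table was fitted separately, with all its groups, in R 4.3.3 with edgeR 4.0.16 (filterByExpr with a minimum count of 10 and a minimum total of 15, TMM scaling, quasi-likelihood test, Benjamini-Hochberg adjustment over all genes tested). CPM use TMM library sizes, and ± gives the SD of 2 libraries or the SE of the fit. The call was an absolute log2 fold change over 0.5 with an adjusted p under 0.05, and for IAA in sorted cells an absolute log2 fold change over 0.25 with an unadjusted p under 0.05, after the study. DESeq2 1.42.0, RLE scaling, no filter, a replicate block, fits of only the groups compared and leaving out each library were the alternatives. Scripts were tested on simulated data. The members and lists were chosen with earlier results of these data known. All 10 members are named, and of the other lists the genes past a call or at most the 3 with the smallest p per comparison. Deviations of same-numbered replicates correlated at 0.372 to 0.586 in sorted cells and 0.259 to 0.376 in wtSRCAP and cdSRCAP cells (exonic reads), so the fit with the block is given there where it changed a call of the members or lists. The number comes from the sample titles. In the time course these correlations ran from -0.0359 to 0.589, and in CGR8 the 1 value was 0.0736. Symbols came from GENCODE vM21 identifiers, of which 55141 of 55401 matched without the version.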

Additional observations from a re-analysis of the deposited data

How the results depend on the processing

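Of 283 counts of called members recomputed under an alternative, 272 stayed on the same side and 11 changed. The direction of Slc1a5 at 6 h in SYAT exonic reads turned from 0.19 to -0.12 on the log2 scale without the second library at 6 h. Where no member was called at first, the replicate block gave 1 called member at 8 h in SYAT cells (Slc7a1, adjusted p = 0.0423 by edgeR), 2 in wtSRCAP and 2 in cdSRCAP cells in exonic reads, and 1 in wtSRCAP cells in intronic reads; the wtSRCAP exonic count was also 2 with the block and without the first IAA replicate, an alternative chosen after seeing the data. In the time course the deviations of same-numbered libraries correlated at -0.0359 to 0.589 in exonic reads. They did so in some pairs of groups and not in others, so its block value is a hint only. Without the filter on low counts, 1 member was called at 8 h in SYAT exonic reads and 1 in wtSRCAP intronic reads, and DESeq2 called 1 at 8 h in SYAT and 1 in wtSRCAP cells in intronic reads. Leaving out 1 library gave 0 to 1 called members in intronic reads at 6 h in SYAT and in EG1 cells. Over all genes, calls by edgeR, DESeq2 and edgeR with the block numbered 0, 123 and 76 at 4 h, 13, 574 and 823 at 6 h, 1, 359 and 634 at 8 h, 257, 147 and 1269 in EG1, 214, 83 and 883 in LG1, 1, 14 and 612 in wtSRCAP and 0, 7 and 345 in cdSRCAP cells in exonic reads. They numbered 0, 8 and 0 at 2 h, 0, 14 and 0 for 8 h against 2 h, 0, 22 and 174 between the lines in controls and 1, 3 and 269 with IAA, and 0, 0 and 152 between LG1 and EG1 in controls and 0, 2 and 213 with IAA. In intronic reads they were 0, 61 and 0 at 2 h, 0, 250 and 1 at 4 h, 2, 510 and 8 at 6 h, 1, 456 and 7 at 8 h, 397, 404 and 754 in EG1, 688, 614 and 1573 in LG1, 38, 185 and 292 in wtSRCAP, 30, 155 and 320 in cdSRCAP, and 13, 91 and 136 in controls and 2, 109 and 240 with IAA between the lines. Without the filter, exonic calls by edgeR were 885 at 6 h, 448 at 8 h, 626 in EG1, 372 in LG1, 20 in wtSRCAP and 10 in cdSRCAP cells. The cause was not tested. With 2 libraries per group the intervals are wide, and Slc6a9 and Slc7a11 rest on few reads.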
